A study of Mus musculus with 16 samples.

Results

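The mitochondrial genome of the mouse encodes a full set of transfer RNAs and the RNAs of both subunits of the mitochondrial ribosome, and all of these RNAs are listed among the small RNA intervals counted here. The 24 intervals on chromosome MT, 22 tRNAs and 2 rRNAs out of 1885 intervals in all, were taken as members by position, and every one of them matched a gene of GENCODE release M21 (GRCm38) by exact start and end. They were counted in 16 libraries, 2 for each of 8 populations sorted by flow cytometry from the bone marrow of wild-type (WT) mice. The 4 mature populations were B, T, Myeloid (spelled Myloid in the labels) and Erythroid cells, and the 4 progenitor populations were the common lymphoid (CLP), common myeloid (CMP), granulocyte-monocyte (GMP) and megakaryocyte-erythroid progenitor (MEP). No group carried a treatment or an engineered allele, and the sources used here give no age of the mice. They leave unstated if paired libraries were made from separate mice, so p-values here measure spread among libraries that may be technical replicates.

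Mitochondrial tRNAs and rRNAs serve only the ribosomes inside the organelle, which make the few subunits of the respiratory chain and the ATP synthase that the organelle's own genome encodes. Both strands of that genome are transcribed into long precursors, and the tRNAs lie between the other genes like punctuation, so that cutting them out at their 5′ and 3′ ends also frees the rRNAs and mRNAs. Amounts of the single mitochondrial RNAs then depend on transcription, on this processing and on how long each product lasts. A tRNA is named here by the letter of its amino acid, so that mt-Tm is the methionine tRNA, and the 2 tRNAs each for leucine and serine carry a number.

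The sequences of 8 tRNAs are given because the results below turn on them, from the GENCODE M21 transcripts in the direction of each gene, with the anticodon in capitals. The first 3 lie side by side on the plus strand, at MT:11546-11612, MT:11613-11671 and MT:11671-11741, and had very different levels:
mt-Th: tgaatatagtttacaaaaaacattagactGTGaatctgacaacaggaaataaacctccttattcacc
mt-Ts2: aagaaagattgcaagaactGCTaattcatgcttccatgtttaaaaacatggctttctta
mt-Tl2: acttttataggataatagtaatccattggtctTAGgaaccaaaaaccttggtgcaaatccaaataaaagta
The next 3 had the largest differences between mature cells and progenitors after mt-Tw, whose error was far larger. They are mt-Tm (MT:3845-3913) on the plus strand and mt-Tq (MT:3772-3842) and mt-Tc (MT:5192-5257) on the minus strand:
mt-Tm: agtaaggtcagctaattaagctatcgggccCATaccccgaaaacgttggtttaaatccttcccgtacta
mt-Tq: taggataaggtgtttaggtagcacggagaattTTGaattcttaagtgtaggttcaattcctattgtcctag
mt-Tc: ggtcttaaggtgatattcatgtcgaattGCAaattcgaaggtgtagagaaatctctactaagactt
The last 2 are mt-Tl1 (MT:2676-2750), a leucine tRNA at nearly the same level at both stages, and mt-Tk (MT:7700-7764), the lysine tRNA with the fewest counts of any member:
mt-Tl1: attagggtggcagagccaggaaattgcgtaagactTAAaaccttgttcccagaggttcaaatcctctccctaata
mt-Tk: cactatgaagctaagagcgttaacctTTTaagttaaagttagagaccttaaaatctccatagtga
The anticodons were found by a search for a loop of 7 bases closed by a stem of 5 positions, of which 4 were paired in mt-Ts2, mt-Tl1 and mt-Tt, 3 in mt-Tw and 5 in the others, and each reads the amino acid in the gene's name under the vertebrate mitochondrial code. Of the 22 tRNAs, 14 are encoded on the plus strand and 8 on the minus strand (mt-Tq, mt-Ta, mt-Tn, mt-Tc, mt-Ty, mt-Ts1, mt-Te and mt-Tp), and both rRNAs are on the plus strand.

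Total counts per library ran from 12723900 to 35775890 in mature cells and from 8197458 to 41799906 in progenitors, and the members held 188286 counts over the 16 libraries, 81903 of them from tRNAs. Inserts were selected on a gel at about snoRNA length, so the rRNAs, of 955 and 1582 bases, were seen as fragments. The nearest library by Spearman correlation was of another population for both libraries of GMP, MEP and Erythroid, and was the replicate in the other 5 populations. Over all features the replicates of these 3 populations also differed most, by a chi-square per degree of freedom of 111 in GMP, 83.2 in MEP and 94.3 in Erythroid, against 3.01 (CMP) to 32.1 (B) in the other 5. Among the members alone it was 3.30 per member in GMP, 1.73 in MEP and 2.07 in Erythroid, against 0.891 (CMP) to 3.54 (CLP) in the other 5. For the same relative difference a chi-square grows with the counts, and the most abundant features far exceed the members. The values of the members can thus not be set against those of all features. The labels were checked against microRNAs, which these libraries hold. Mir223, a myeloid microRNA, was highest in Myeloid at 921 scaled CPM (CPM, counts per 1000000, on library sizes scaled by the trimmed mean of M values, TMM), and Mir150, a microRNA of mature lymphocytes, was highest in T at 272. The overlapping red-cell microRNA intervals Mir451b/Mir451a had 147 in Erythroid and 12.1 in B, against 152 in MEP and also 127 in CLP, where the label names no red-cell stage. Mir223 was highest among progenitors in GMP at 346, but Erythroid had 443. Mir126a was highest in CMP at 18.2, yet T at 12.5 lay above MEP (9.36), GMP (8.70) and CLP (7.04). Mir125a was highest in T at 1.42, with 1.35 in CMP and 0.0634 to 0.240 in CLP, GMP and MEP. Mir99a (16.4) and Mir125b-1 (1.89) were highest in CMP, but Myeloid (4.65 and 0.714) lay above CLP (4.33 and 0.174) and MEP (3.90 and 0.353). None of Mir126a, Mir125a, Mir99a and Mir125b-1 thus set CLP, GMP and MEP all above the mature cells, and they give no check of these labels. In such bulk samples fewer cells of a type and less RNA per cell cannot be told apart.

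The mitochondrial RNAs were a small part of each library, and a smaller part in mature cells than in progenitors. The 22 tRNAs held 0.0126% and 0.0126% of all counts in the T libraries, 0.0162% and 0.0155% in B, 0.0193% and 0.0178% in Myeloid and 0.0232% and 0.0253% in Erythroid. Among progenitors they held 0.0294% and 0.0318% in GMP, 0.0320% and 0.0326% in CLP, 0.0336% and 0.0355% in MEP and 0.0410% and 0.0401% in CMP. Every mature library lay below every progenitor library, and the libraries of neighbouring populations in this order (T, B, Myeloid, Erythroid, GMP, CLP, MEP, CMP) did not overlap, although GMP and CLP came close. The 2 rRNAs held 0.0151% to 0.0328% of counts in the 8 mature libraries and 0.0373% to 0.0556% in the 8 progenitor libraries, in the order T, B, Myeloid, Erythroid, GMP, CLP, MEP and CMP. GMP and CLP overlapped in that order. These shares are descriptions without a test, and they depend on what else each library holds. On TMM-scaled library sizes the tRNA sum of Myeloid (168 and 158 scaled CPM) lay below B (191 and 192) and overlapped T (155 and 165). The tRNA sums of the stages did not overlap there, the highest mature library having 253 and the lowest progenitor library 284. For the scaled rRNA sums the stages overlapped, with Erythroid library 1 at 340 and CLP library 2 at 339.

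**Figure D1:**
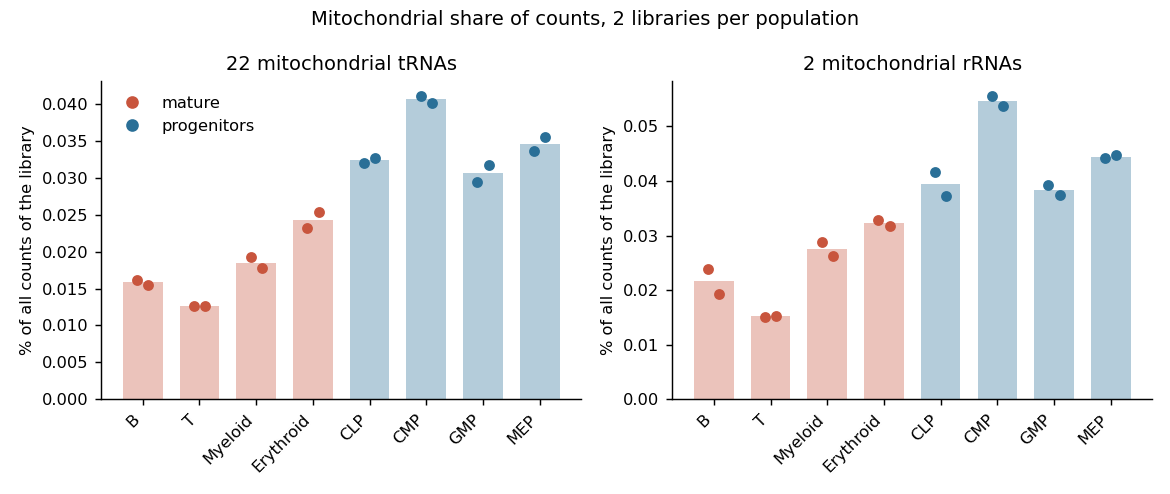
Share of all counts of a library, in percent, held by the 22 mitochondrial tRNAs (left) and the 2 mitochondrial rRNAs (right) in 8 populations, mature cells in red and progenitors in blue. Points are libraries and bars their mean. The mature libraries sit between 0.0126% and 0.0253% for tRNAs, below the progenitor libraries at 0.0294% to 0.0410%.

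A few tRNAs made up most of the counts. The histidine tRNA mt-Th held 39.3% of all mitochondrial tRNA counts over the 16 libraries, mt-Ts2, the serine tRNA for AGY codons, held 17.6%, mt-Tm 10.1%, the alanine tRNA mt-Ta 6.14% and the glycine tRNA mt-Tg 4.19%. At the other end the lysine tRNA mt-Tk held 0.0562%, with 46 counts in 9 of 16 libraries, and it was the one member that did not pass the low-count filter and was not tested. It was at 0 in both B libraries, T library 1, Myeloid library 1 and Erythroid library 2, and in CMP library 1 and MEP library 1. In these libraries a count of 0 allows up to 0.261 CPM (MEP library 1) to 0.732 CPM (CMP library 1), taking 3 read pairs and counting error only.

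Per kilobase of gene, in scaled CPM averaged over the 8 populations, the level was 1523 for mt-Th, 730 for mt-Ts2 and 366 for mt-Tm. The large-subunit rRNA mt-Rnr2 was at 154 and the small-subunit rRNA mt-Rnr1 at 92.0 per kilobase. The lowest levels per kilobase were those of mt-Tk at 2.44, the second leucine tRNA mt-Tl2 at 5.66 and the phenylalanine tRNA mt-Tf at 5.88. How completely each RNA entered the libraries was not measured, so these are levels of recovered fragments.

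Neighbours on the genome did not share a level. The run mt-Th, mt-Ts2 and mt-Tl2 has no base between its genes, and mt-Ts2 and mt-Tl2 share 1 base, yet mt-Th was 269-fold above mt-Tl2 per kilobase in the mean over populations. In the segment at the start of the map, mt-Tf, mt-Rnr1, mt-Tv, mt-Rnr2 and mt-Tl1 follow each other with at most 1 base between them. Their levels per kilobase were 5.88, 92.0, 128, 154 and 89.2 in that mean, the valine tRNA mt-Tv lying between the rRNAs in position and in mean level. By population this held in B, Myeloid, Erythroid, CLP and MEP. In CMP mt-Tv (342) was above mt-Rnr1 (143) and mt-Rnr2 (213). It was below both in T (52.7, against 69.8 and 79.9) and in GMP (85.8, against 87.6 and 176). In the threonine and proline pair at the end of the gene map, mt-Tt on the plus strand had 15.97 and mt-Tp on the minus strand 30.1 per kilobase. The isoleucine tRNA mt-Ti and the glutamine tRNA mt-Tq overlap by 3 bases on opposite strands. Whether counting used strand is not given in the sources used here, so reads over such an overlap, or from the opposite strand of any member, cannot be told apart.

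**Figure D2:**
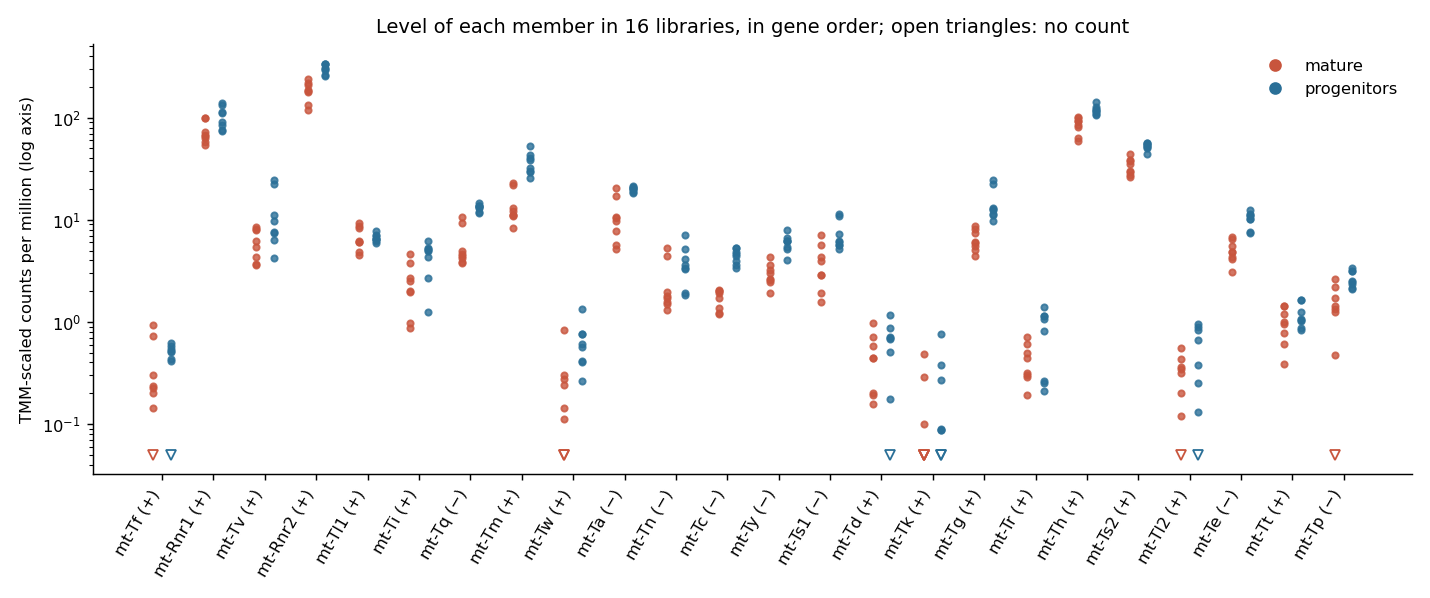
Level of the 24 members in 16 libraries in gene order along the mitochondrial genome, in scaled CPM on a log axis, with mature libraries in red left of progenitor libraries in blue, and the strand in parentheses. Open triangles mark libraries without a count. The mean over populations runs from 0.159 for mt-Tk to 244 for mt-Rnr2.

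The first comparison asked which members differ between mature cells and progenitors. Of the 23 tested members 17 were lower in mature cells and none was higher, 15 of 21 tRNAs and both rRNAs (edgeR quasi-likelihood test, adjusted p under 0.05 over 749 features). Of all 749 features 49.8% passed in either direction, 26.7% lower and 23.1% higher. The median log2 difference of the members was −0.81, against −0.07 over all features tested, −0.04 over 303 snoRNAs and −0.53 over 118 snRNAs. It was −0.55 over 35 features of the annotation type misc_RNA and 0.41 over 267 microRNAs. The libraries of mature cells lay wholly below those of progenitors for 7 members, where 3.2% of all features did, and for none above them, where 1.07% did.

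mt-Tm, which serves both initiation and elongation in mitochondria, had 8.33, 11.7 and 23.03 scaled CPM (lowest, median and highest of 8 libraries) in mature cells, against 25.7, 35.3 and 52.9 in progenitors. The libraries did not overlap, T library 1 being the lowest and MEP library 2 the highest. The log2 difference was −1.43 ± 0.08 (SE), or 2.70-fold lower in mature cells (adjusted p = 1.07e-07 by edgeR).

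mt-Tc, the cysteine tRNA, had 1.19, 1.81 and 2.05 scaled CPM in mature cells, against 3.40, 4.52 and 5.30 in progenitors. No library overlapped, although a level this low rests on few reads. The difference was −1.41 ± 0.14 (adjusted p = 9.38e-06 by edgeR). The glutamine tRNA mt-Tq had 3.81, 4.48 and 10.6 scaled CPM in mature cells, against 11.5, 13.5 and 14.5 in progenitors. Its 2 Erythroid libraries, at 9.28 and 10.6, stood just under the progenitors, and the other 6 mature libraries lay at 3.81 to 4.91. The difference was −1.31 ± 0.08 (adjusted p = 1.32e-07 by edgeR).

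mt-Rnr2, the RNA of the large mitochondrial ribosomal subunit, had 120, 186 and 240 scaled CPM in mature cells, against 255, 305 and 340 in progenitors. The libraries did not overlap, and the difference was −0.75 ± 0.06 (adjusted p = 7.60e-07 by edgeR). mt-Rnr1, of the small subunit, had 54.6, 66.7 and 100.3 in mature cells, against 74.8, 101 and 140 in progenitors. Here the libraries overlapped, since both Erythroid libraries (100.3 and 99.1) lay above both libraries of CLP and of GMP. The difference of mt-Rnr1 was −0.51 ± 0.07 (adjusted p = 6.37e-05 by edgeR).

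mt-Th, the most abundant tRNA, had 59.8, 88.2 and 103 scaled CPM in mature cells, against 106, 118 and 144 in progenitors, with a difference of −0.52 ± 0.05 (adjusted p = 4.96e-06 by edgeR). Its libraries did not overlap, and the 2 lowest were those of Myeloid. Its neighbour mt-Ts2 had 26.1, 32.5 and 44.6 in mature cells, against 43.8, 53.4 and 56.2 in progenitors (−0.66 ± 0.06, adjusted p = 5.10e-06 by edgeR). In mt-Ts2 the overlap came from Erythroid library 2, at 44.6, and GMP library 2, at 43.8.

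The glycine tRNA mt-Tg had 4.46, 6.04 and 8.71 scaled CPM in mature cells, against 9.81, 12.7 and 24.6 in progenitors, without overlap (−1.15 ± 0.09, adjusted p = 1.06e-06 by edgeR). The glutamate tRNA mt-Te, also without overlap, had 3.10, 4.87 and 6.86 in mature cells, against 7.46, 10.6 and 12.5 in progenitors (−1.04 ± 0.13). The other members past the threshold were mt-Ty (tyrosine, −1.02), mt-Ta (−1.01), mt-Ts1 (serine for UCN codons, −0.97), mt-Ti (−0.96), mt-Tv (−0.81) and mt-Tn (asparagine, −0.71), with overlapping libraries and adjusted p of 2.21e-06 to 0.00256 by edgeR. mt-Tp (−1.06, adjusted p = 0.0382 by edgeR) and the tryptophan tRNA mt-Tw (−1.49, adjusted p = 0.0431) were near the threshold. mt-Tp had 1.38 scaled CPM in mature cells and 2.65 in progenitors. The call for mt-Tp was lost without any one of CLP library 1, CMP library 2, GMP library 2, MEP library 1, B library 1, Myeloid library 1 or 2 and Erythroid library 2 (adjusted p 0.0523 to 0.106). mt-Tw had 0.238 scaled CPM in mature cells and 0.638 in progenitors. Its call was lost without any one of 12 libraries, all but GMP library 1, MEP library 2 and both of B (adjusted p 0.0543 to 0.108), and without replicate 1, replicate 2 or both of GMP, MEP and Erythroid (0.0737, 0.0716 and 0.159).

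**Figure D3:**
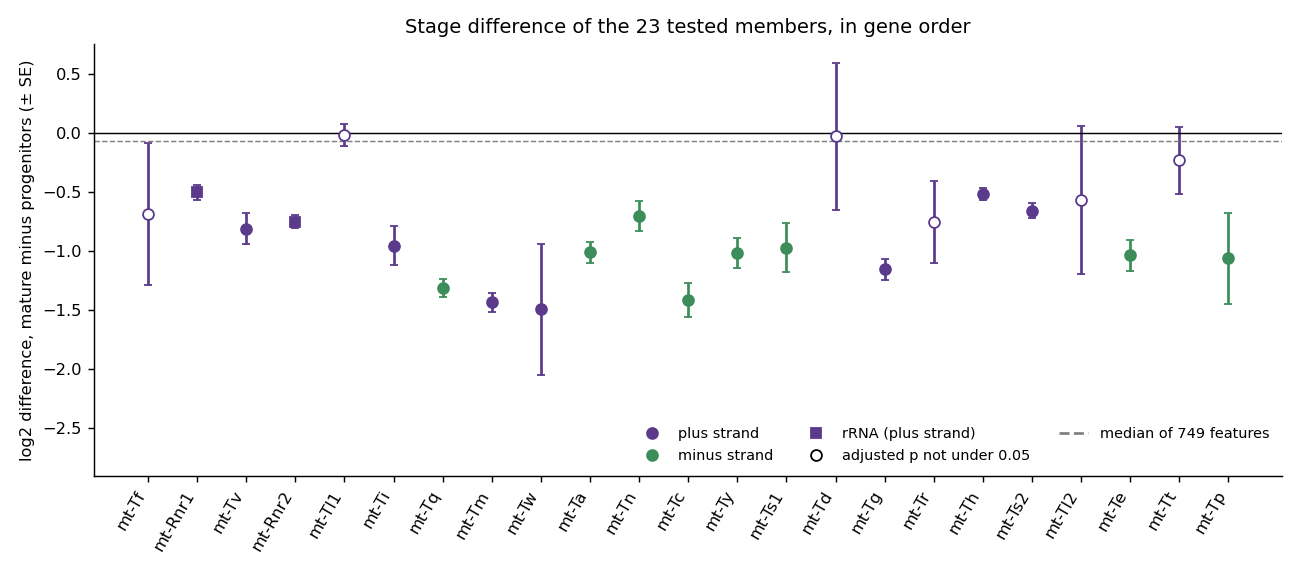
Log2 difference, mature cells minus progenitors, of the 23 tested members in gene order along the mitochondrial genome, with its standard error. Filled symbols have an adjusted p under 0.05 by edgeR, colours give the strand, squares are rRNAs, and the dashed line is the median of 749 features at −0.07. The 8 minus-strand tRNAs lie between −1.41 and −0.71, and mt-Tl1 and mt-Td lie close to 0.

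The 6 members that did not pass were all encoded on the plus strand. mt-Tl1, which follows mt-Rnr2 without a gap, had 4.53, 6.12 and 9.25 scaled CPM in mature cells, against 5.89, 6.50 and 7.70 in progenitors. The difference was −0.02 ± 0.09 (adjusted p = 0.857 by edgeR), the progenitor libraries all lying inside the range of the mature ones, and its sign depended on the scaling, being 0.0148 with relative log expression (RLE) scaling. With library totals in place of TMM it was −0.25 and passed (adjusted p = 0.0299). The other 5 were mt-Td (aspartate, −0.03 ± 0.62), mt-Tt (−0.23 ± 0.28), mt-Tl2 (−0.57 ± 0.62), mt-Tf (−0.69 ± 0.60) and mt-Tr (arginine, −0.75 ± 0.35), with adjusted p of 0.0925 to 0.976 by edgeR. Each of these 5 averaged between 0.400 and 1.07 scaled CPM over the populations.

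By strand, 8 of 8 minus-strand tRNAs were lower in mature cells, with a median of −1.03, and 7 of 13 tested plus-strand tRNAs, with a median of −0.69. The difference between the strands was not tested, and 5 of the 6 plus-strand tRNAs that did not pass were those at low level. In counts per library, the plus-strand tRNAs exceeded the minus-strand tRNAs 7.02-fold and 5.72-fold in the T libraries and 5.42-fold and 5.41-fold in B. The ratio was 3.91 and 4.79 in Myeloid and 3.95 and 3.42 in Erythroid, against 3.39 to 4.38 in the progenitor libraries. T and B were thus the only populations above 5 in both libraries. Without mt-Th and mt-Ts2 the ratio was 0.891 to 1.34 in mature cells and 0.862 to 1.41 in progenitors, so the excess of plus-strand counts lay in these 2 tRNAs. Together they made up 57.2% to 71.9% of mitochondrial tRNA counts in mature libraries and 48.9% to 57.6% in progenitor libraries.

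The ratio of small- to large-subunit rRNA counts, mt-Rnr1 over mt-Rnr2, was 0.547 and 0.510 in T and 0.418 and 0.455 in Erythroid, against 0.290 and 0.283 in CLP and 0.419 and 0.393 in CMP. In the other populations it ran from 0.306 to 0.341 in mature cells (B and Myeloid) and from 0.253 to 0.368 in progenitors (GMP and MEP). The ratio of rRNA to tRNA counts lay between 1.195 and 1.498 in mature libraries and between 1.14 and 1.35 in progenitor libraries. These ratios are within a library and do not depend on how libraries are scaled.

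To take populations rather than libraries as units, the stage difference was also fitted with the 2 libraries of each population summed, 4 mature against 4 progenitor populations. Then 2 members passed, mt-Tm at −1.33 (adjusted p = 0.0346 by edgeR) and mt-Tc at −1.34 (adjusted p = 0.0339), of 28 features in all. mt-Tq, mt-Tg and mt-Te had an adjusted p of 0.0551 each in that fit. Without GMP, MEP and Erythroid 16 members were lower in mature cells, and 434 of 719 features passed in either direction. Without replicate 1 of these populations it was 16 members and 438 of 817 features, and without replicate 2 it was 16 members and 422 of 812 features. mt-Tm and mt-Tc kept the sign of the difference and the call under every alternative in which they were tested.

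Among the mature cells T was the lowest of the 8 populations in 15 of the 23 tested members, and Erythroid was the highest of the 4 mature populations in 17. The 15 include mt-Tf and mt-Tw, with counts of 0 and 2 in the T libraries. Such ranks are not given here for all features. The 4 mature populations differed in 12 members (52.2%), near the 50.9% of all features that did. mt-Tq averaged 9.93 ± 0.91 scaled CPM in Erythroid (SD, n = 2), and 4.74 ± 0.24 in Myeloid, 4.12 ± 0.37 in B and 4.03 ± 0.32 in T (adjusted p = 4.60e-05 by edgeR). mt-Ta averaged 18.8 ± 2.3 in Erythroid, 10.3 ± 0.62 in B, 9.12 ± 2.0 in Myeloid and 5.42 ± 0.26 in T (adjusted p = 4.99e-05). For mt-Tq the libraries of B and T overlapped and those of Myeloid lay just above them, while for mt-Ta T stood below the other mature populations in both libraries.

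mt-Tm averaged 22.4 ± 0.85 scaled CPM in Erythroid, and 12.6 ± 0.60 in B, 11.04 ± 0.18 in Myeloid and 9.70 ± 1.9 in T, the last 2 of which overlapped (adjusted p = 0.000231 by edgeR). mt-Tn averaged 4.83 ± 0.61 in Erythroid and 1.42 ± 0.18 to 1.75 ± 0.041 in the other mature populations (adjusted p = 0.000315). For mt-Th the low population was Myeloid, at 61.7 ± 2.7, with 83.1 ± 1.9 in T, 92.0 ± 0.15 in B and 102 ± 1.6 in Erythroid (adjusted p = 0.000553 by edgeR).

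mt-Tl1 had its own order, with 8.93 ± 0.46 scaled CPM in B, 7.17 ± 1.6 in T, 6.12 ± 0.13 in Erythroid and 4.66 ± 0.20 in Myeloid (adjusted p = 0.00724 by edgeR). Progenitors lay between these, at 6.18 ± 0.40 to 7.42 ± 0.40. That call was lost with library totals and with no low-count filter (adjusted p up to 0.121). The remaining members past the threshold among mature cells were mt-Rnr2, mt-Rnr1, mt-Ti, mt-Ts2, mt-Tv and mt-Tg, with adjusted p of 0.000440 to 0.0173 by edgeR. Those of mt-Ts2 and mt-Tg were lost with RLE scaling, with no low-count filter and without CLP library 1, B library 1 or T library 2. That of mt-Ts2 was also lost with DESeq2 and with only features of at least 10 CPM, and that of mt-Tg without Erythroid library 2. The highest adjusted p over all alternatives was 0.248 for mt-Ts2 and 0.256 for mt-Tg.

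The 4 progenitors differed from each other in 6 members (26.1%), near the 29.8% of all features that did. CMP was the highest of the 4 in 10 of the 23 and MEP in 8, ranks that are likewise not given for all features. mt-Tv had 24.8 and 22.4 scaled CPM in CMP, against 9.69 and 11.2 in MEP, 6.36 and 7.47 in CLP and 4.22 and 7.61 in GMP (adjusted p = 0.000311 by edgeR). mt-Tg had 24.6 and 22.5 in CMP, against 9.81 to 13.2 in the other progenitors (adjusted p = 0.00102). In both tRNAs CMP stood above every other library of the 16.

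mt-Rnr1 had 140 and 133 scaled CPM in CMP and 114 and 111 in MEP, against 74.8 to 90.8 in CLP and GMP (adjusted p = 0.00203 by edgeR). mt-Tn was at 7.08 and 5.13 in CMP and at 1.90 and 1.82 in CLP, with 3.31 to 4.09 in GMP and MEP (adjusted p = 0.00203). mt-Ti went the other way, with 1.25 and 2.70 in CMP, against 4.31 to 6.27 in the other progenitors (adjusted p = 0.0185 by edgeR). This call was lost without CLP library 1 or CMP library 1 (adjusted p up to 0.174). mt-Tm was highest in MEP, at 43.0 and 52.9, with 40.2 and 38.4 in CMP and 25.7 to 32.2 in CLP and GMP (adjusted p = 0.00761 by edgeR), a call lost without MEP library 2 and with no low-count filter (adjusted p up to 0.122). Over all 8 populations 16 of 23 members differed, all but mt-Tf, mt-Tw, mt-Td, mt-Tr, mt-Tl2, mt-Tt and mt-Tp, where 61.1% of all features did. The call for mt-Tl1 was lost with library totals, with TMM from snoRNAs and scaRNAs alone, with no low-count filter and without B library 1 or either Myeloid library (adjusted p up to 0.476).

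**Figure D4:**
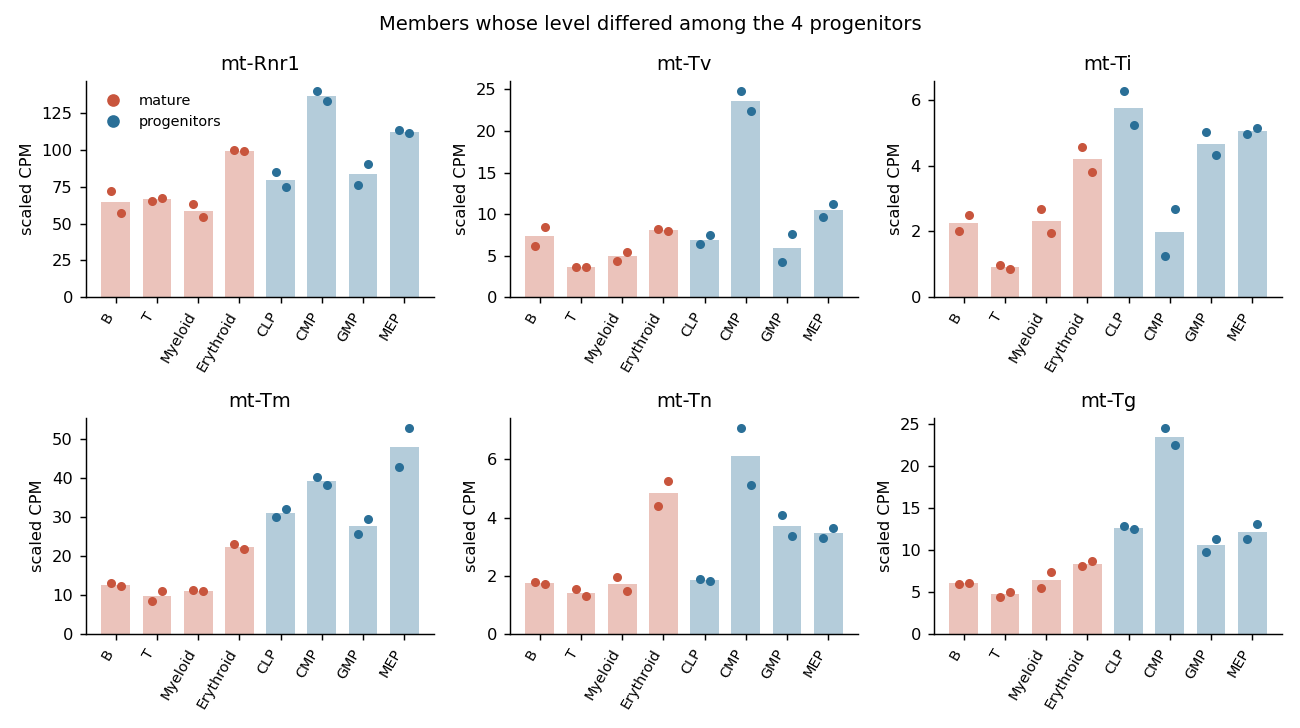
Level of the 6 members that differed among progenitors, in scaled CPM, in 8 populations with mature cells in red and progenitors in blue. Points are libraries and bars their mean. mt-Tv, mt-Tg, mt-Tn and mt-Rnr1 are highest in CMP, mt-Tm in MEP, and mt-Ti is lowest in T and next in CMP.

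The remaining comparisons set each mature population against its progenitor. These use all 16 libraries for the estimate of the spread. In the lymphoid branch, B and T minus CLP, 13 of 23 members were lower in B and T and none higher. Of all features 43.3% passed in either direction, 25.2% lower and 18% higher. mt-Ti had 2.02 and 2.50 scaled CPM in B and 0.968 and 0.862 in T, against 6.27 and 5.25 in CLP. The sides did not overlap and the difference was −2.0 ± 0.27, or 4.00-fold lower in B and T (adjusted p = 9.65e-05 by edgeR). mt-Tq had 3.85 and 4.38 in B and 4.26 and 3.81 in T, against 13.8 and 13.1 in CLP (−1.72 ± 0.12, adjusted p = 7.53e-07).

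The other members lower in B and T were mt-Tm (−1.49), mt-Ta (−1.41), mt-Ts1 (−1.38), mt-Tg (−1.24), mt-Tc (−1.21), mt-Te (−1.05), mt-Ts2 (−0.99), mt-Ty (−0.88) and mt-Rnr2 (−0.82), with adjusted p of 3.30e-06 to 0.00785 by edgeR, and mt-Tr (−1.65, 0.0291) and mt-Th (−0.30, 0.0145). The mean of mt-Ts2 was 28.3 scaled CPM in B and T and 56.1 in CLP, while that of mt-Th was 87.6 in B and T and 107 in CLP. The call for mt-Th was lost without either CLP library, B library 1 or T library 2 (adjusted p 0.0652 to 0.241), with RLE scaling (0.0888) and with no low-count filter (0.139). That for mt-Tr was lost without either CLP library, B library 2 or either T library (adjusted p 0.0635 to 0.148). Those for mt-Te and mt-Ty were lost without CLP library 2 (adjusted p = 0.0515 and 0.0862 by edgeR).

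In the granulocyte-monocyte branch 12 members were lower in Myeloid than in GMP and none higher. Of all features 31.8% passed in either direction, 16.3% lower and 15.5% higher. mt-Tc had 1.23 and 1.19 scaled CPM in Myeloid, against 3.40 and 5.26 in GMP (−1.84 ± 0.29, adjusted p = 0.000908 by edgeR). mt-Th had 63.6 and 59.8 in Myeloid, against 113 and 120 in GMP (−0.92 ± 0.10, adjusted p = 8.18e-05). The sides did not overlap in either. mt-Tm (−1.32), mt-Tq (−1.30), mt-Te (−1.42), mt-Ta (−1.09) and mt-Ty (−1.12) were lower as well, with adjusted p of 0.000108 to 0.00679 by edgeR.

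The other 5 were mt-Tn (−1.12), mt-Ti (−1.02), mt-Tg (−0.70), mt-Rnr2 (−0.60) and mt-Rnr1 (−0.51), and each of these calls, like that of mt-Ty, was lost without some library. Without GMP library 1 it was lost for mt-Rnr2 (adjusted p = 0.0517 by edgeR), mt-Ti (0.154) and mt-Tn (0.0710). Without Myeloid library 1 it was lost for mt-Ti (0.0548) and mt-Tg (0.101), and without Myeloid library 2 for mt-Ti (0.188), mt-Tn (0.0685), mt-Ty (0.0617) and mt-Rnr1 (0.0949). For mt-Rnr1 it was also lost without CLP library 1 (0.0616), GMP library 2 (0.0617) or T library 2 (0.0655), with library totals (0.0572) and with TMM from snoRNAs and scaRNAs alone (0.0573). With no low-count filter the call was lost for mt-Rnr1 (0.138), mt-Ti (0.0806), mt-Tn (0.0620) and mt-Tg (0.172), and without replicate 1 of GMP, MEP and Erythroid for mt-Ti (0.0804) and mt-Tn (0.0576).

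In the erythroid branch 4 members were lower in Erythroid than in MEP and none higher. Of all features 9.88% passed in either direction, 5.47% lower and 4.41% higher. mt-Tm had 23.03 and 21.8 scaled CPM in Erythroid, against 43.0 and 52.9 in MEP (−1.10 ± 0.16, adjusted p = 0.00128 by edgeR), and it passed under every alternative tried. mt-Tc had 1.99 and 2.05 in Erythroid, against 5.30 and 4.45 in MEP (−1.27 ± 0.28, adjusted p = 0.0146). The call for mt-Tc was lost without any one of these 4 libraries (adjusted p 0.0520 to 0.0702) and with no low-count filter (0.0790). mt-Rnr2 had 240 and 218 in Erythroid, against 308 and 337 in MEP (−0.50 ± 0.11, adjusted p = 0.0147 by edgeR). mt-Th had 103 and 100.4 in Erythroid, against 121 and 144 in MEP (−0.38 ± 0.10, adjusted p = 0.0289). Leaving out any single library left 1 to 3 members past the threshold, and the call for mt-Rnr2 was lost without any one of 11 libraries (adjusted p 0.0605 to 0.333), all but CMP library 2, both of GMP, MEP library 1 and Myeloid library 2. The call for mt-Th was lost without any one of 15 libraries (adjusted p 0.0549 to 0.584), all but MEP library 1. Both calls were also lost with RLE scaling, with no low-count filter and with DESeq2 (adjusted p up to 0.218 for mt-Rnr2 and 0.658 for mt-Th), and that of mt-Th without replicate 2 of GMP, MEP and Erythroid (0.117).

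**Figure D5:**
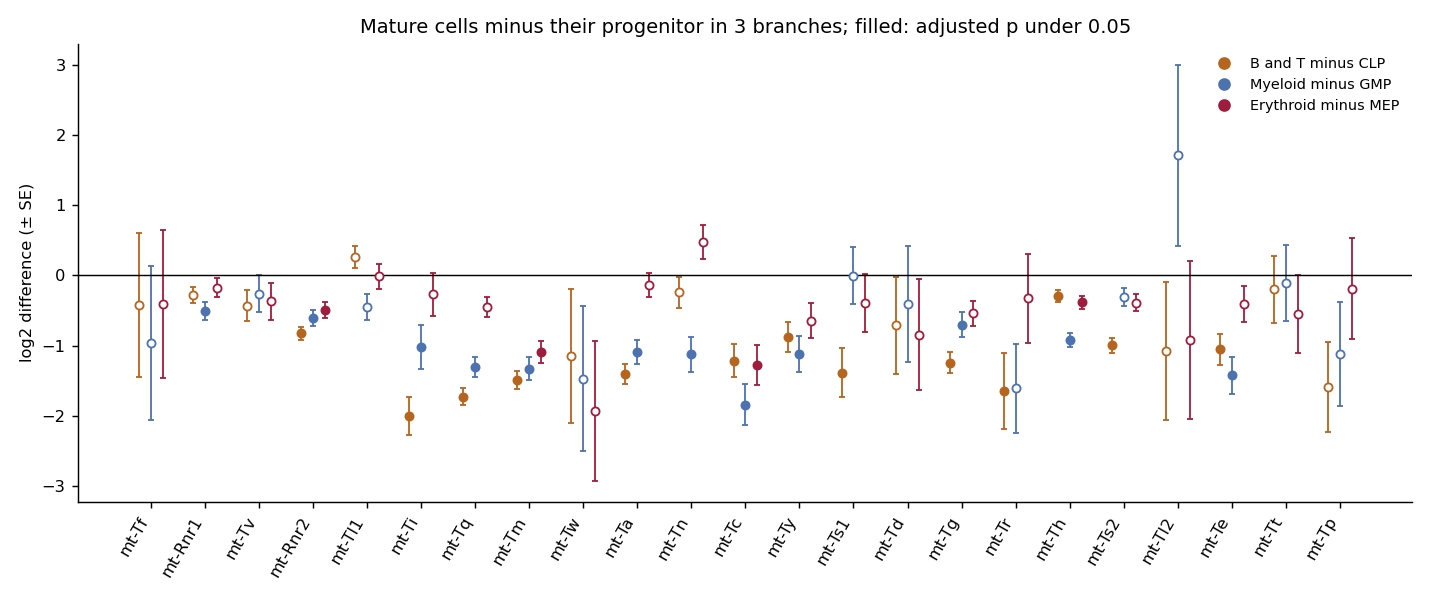
Log2 difference of the 23 tested members with its standard error in 3 branches, mature cells minus their progenitor, in gene order. Filled points have an adjusted p under 0.05 by edgeR. The filled points all lie below 0, 13 for B and T minus CLP, 12 for Myeloid minus GMP and 4 for Erythroid minus MEP.

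mt-Tm and mt-Rnr2 passed in all 3 branches, as did mt-Tc and mt-Th. The size of the difference was itself unlike among the branches for 6 members (26.1%), near the 25.8% of all features that passed that test. mt-Tq was −1.72 in the lymphoid, −1.30 in the granulocyte-monocyte and −0.45 ± 0.14 in the erythroid branch (adjusted p = 0.00167 by edgeR for the difference among branches). mt-Ta was −1.41, −1.09 and −0.13 ± 0.17 in the same order (adjusted p = 0.00351). These 2 passed under every alternative in which they were tested.

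mt-Th was −0.30, −0.92 and −0.38 (adjusted p = 0.00912 by edgeR), and mt-Ts2 −0.99, −0.30 ± 0.13 and −0.39 ± 0.13 (adjusted p = 0.0135). Of these adjacent tRNAs mt-Th had its largest difference in the granulocyte-monocyte branch and mt-Ts2 in the lymphoid branch. mt-Ti was −2.0, −1.02 and −0.27 ± 0.30 (adjusted p = 0.0223), and mt-Tn −0.24 ± 0.22, −1.12 and 0.48 ± 0.24 (adjusted p = 0.0154 by edgeR). Each of these 4 calls was lost without some library. For mt-Th these were CLP library 2, CMP library 1, GMP library 1, B library 2, T library 1, either Myeloid library and Erythroid library 1. For mt-Ts2 they were either CLP library and T library 2, for mt-Ti either CLP library, MEP library 1, T library 2 and Erythroid library 1, and for mt-Tn GMP library 1, MEP library 1 and Myeloid library 2. The calls for mt-Th, mt-Ts2 and mt-Tn were also lost with no low-count filter, that for mt-Th with library totals, that for mt-Ts2 with RLE scaling and that for mt-Tn without replicate 1 of GMP, MEP and Erythroid. The highest adjusted p over all alternatives was 0.478 for mt-Th, 0.168 for mt-Ts2, 0.101 for mt-Ti and 0.152 for mt-Tn. Without CLP library 2, 3 members passed.

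Some RNAs of the cytosolic translation machinery that the same libraries hold are given beside the members. They were chosen with earlier results of these data known, so their direction is a description and no independent result. The nuclear serine tRNA-like intervals n-TStga1 and n-TSaga9 were lower in mature cells, at −1.05 ± 0.09 (adjusted p = 2.21e-06 by edgeR) and −0.85 ± 0.08 (adjusted p = 2.80e-06). n-TSaga9 averaged 20.7 scaled CPM in B, 13.7 in T, 25.9 in Myeloid and 40.6 in Erythroid, against 32.3 to 50.5 in the progenitors. The 45S pre-rRNA interval, the precursor of cytosolic rRNA, was at −0.08 ± 0.05 (adjusted p = 0.206 by edgeR). Other cytosolic tRNAs and rRNAs are not given here.

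No member resembled another member over at least 50 bases at 90% identity. A retained-intron transcript of the nuclear gene Cep295 held stretches like mt-Tl1 (62 bases at 93.5% identity) and mt-Tn (71 bases at 91.5%). Reads of those 2 tRNAs could thus be shared with a nuclear transcript, and their part in the levels was not tested. Nuclear copies of mitochondrial sequence outside annotated transcripts were not analysed here.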

How the data were processed

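Members and gene lists were chosen with earlier results of these data known. Small RNA was measured in 16 libraries from bone marrow cells. Per the labels' protocols, total RNA was taken up in Trizol, and products of about snoRNA length were recovered from a gel. Trimmomatic 0.38, Bowtie2 2.3.4.1 and GRCm38 were used, per the submitters' processing notes; the counting program, annotation and strand setting are not given in the sources used here. The deposited values are the authors' counts of reads per interval, without normalization. Of the values 89.0% to 93.2% per library were even, as when both mates of a pair are counted. Intervals that a file does not list were set to 0. By exact coordinates 1884 of 1885 intervals matched GENCODE M21, and 1 is the 45S pre-rRNA.

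The fit used edgeR 4.0.16 (R 4.3.3) with filterByExpr on the populations (minimum count 10, which kept 749 features), TMM scaling, 1 mean per population (8 residual degrees of freedom), quasi-likelihood F tests and Benjamini-Hochberg adjustment over all features at a threshold of 0.05. The standard error is the log2 difference over the square root of F. The fit was tested on simulated data. Every member is named, and in each comparison every member past the threshold is given. Similar transcripts were found with blastn 2.17.0. Alternatives covered scaling, low-count filters, DESeq2 1.42.0, read pairs, a replicate block, summed populations and libraries left out.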

Additional observations from a re-analysis of the deposited data

Results flagged for a closer look

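A library far from the others of its stage was flagged, and 4 such libraries were found among the members. A stage holds libraries of 4 different populations, so how many flags chance alone would give is not known. The lowest progenitor library for mt-Tf was CLP library 1, at 0 scaled CPM, where the other progenitor libraries had 0.416 to 0.627. For mt-Tw the highest mature library was B library 1, at 0.830, and the highest progenitor library MEP library 1, at 1.33. These 3 are at levels of few reads. For mt-Ts2 the lowest progenitor library was GMP library 2, at 43.8, where the others had 50.4 to 56.2.

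The difference between mature cells and their progenitor was itself unlike among the 3 branches for 6 of 23 members, by edgeR's F test. That is 26.1% of the members, near the 25.8% of all features that passed, so the members did not stand out by this count. The adjusted p was 0.00167 for mt-Tq, 0.00351 for mt-Ta, 0.00912 for mt-Th, 0.0135 for mt-Ts2, 0.0154 for mt-Tn and 0.0223 for mt-Ti. The report gives the value of each branch.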

How the results depend on the processing

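Over 1232 alternative values of single members, 1111 kept their direction and side of the threshold, 110 lost the call, 1 gained it and 10 changed sign. All 10 sign changes were in mt-Tl1 between stages, a difference near 0: 0.0148 with RLE scaling, 0.0122 with TMM from snoRNAs and scaRNAs alone, 0.0195 with DESeq2, 0.00973 with read pairs, 0.0802, 0.0328, 0.000331 and 0.00818 without CLP library 1, B library 1, T library 1 or T library 2, 0.00959 without replicate 1 of GMP, MEP and Erythroid, and 0.1003 with populations as units. With 1 library left out it ran from −0.0531 to 0.0802. With only features of at least 10 CPM, 7 members were tested, and those called were 7 between stages, where 218 of 322 features passed. They were 6 in the lymphoid and 6 in the granulocyte-monocyte branch, 7 over all populations, 3 within progenitors, 6 within mature cells and 3 for the difference among branches. The share of all features under this filter is not given here for the comparisons other than that between stages. With populations as units 2 members and 28 features passed; the smaller number of samples is part of that fit. In the erythroid branch 4 members became 2 with RLE scaling, 7 with library totals, 1 with no low-count filter and 2 of 20 tested with DESeq2. Of all features 19 were lower and 20 higher there with RLE scaling, and 69 and 29 with library totals, against 41 and 33 with TMM. The numbers over all features are not given here for the other settings. Within progenitors more members passed without replicate 1 of GMP, MEP and Erythroid, where each of these populations lacked a replicate. For the difference among branches 10 of 23 members passed with library totals. The share of all features that passed in these fits is not given here, and the cause was not tested.

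With 1 library left out at a time, members called numbered 15 to 18 between stages (322 to 392 features), 9 to 15, 8 to 13 and 1 to 3 in the lymphoid, granulocyte-monocyte and erythroid branches, 15 to 17 over all populations, 5 to 7 within progenitors, 10 to 13 within mature cells and 3 to 7 for the difference among branches. For the comparisons other than that between stages, the matching numbers over all features are not given here. Library totals moved the median of all features by −0.24 between stages and by −0.45 in the lymphoid branch, and gave 309 lower and 107 higher features between stages, against 200 and 173 with TMM, and 312 and 59 against 189 and 135 in the lymphoid branch. Members relative to that median stayed at −0.74 and −0.93. With a replicate block 16 members passed between stages, the call for mt-Tw being lost (adjusted p = 0.0595), and the other counts were as without it (13, 12, 4, 16, 6, 12 and 6). Of 28 pairs of populations 4 had a correlation of the replicate difference over 0.1 (range −0.476 to 0.283), so same-numbered libraries did not deviate together in general. The largest by size were all among GMP, MEP and Erythroid. They were 0.283 for Erythroid and GMP, −0.337 for GMP and MEP and −0.476 for Erythroid and MEP. Replicates of these 3 populations thus deviated in a related way, with the opposite sign in MEP. A block on the replicate number does not remove such a deviation, and its cause was not tested. The mature mean of the tRNA share was 0.0178% in all, 0.0190% over TMM-scaled library sizes, and that of progenitors 0.0345% and 0.0318%. Depth limits the members at or below about 1 scaled CPM, with standard errors of 0.28 to 0.62 for the 5 of them not called between stages.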
